A study of Mus musculus with 3 samples.

Results

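Barcodes of the mouse lacrimal gland (LG) that held many UMIs of the nuclear RNA *Malat1* together with acinar transcripts were taken out of the single-cell RNA sequencing data and described gene by gene. A UMI is a tag that lets each captured RNA molecule be counted once. Kept barcodes had over 500 UMIs, over 200 detected genes and under 15% of UMIs from mitochondrial genes. A kept barcode was a member when *Malat1* made up at least 1% of its UMIs and when *Tfrc*, *Abcc2*, *Prom2*, *Tex15* and *Slc27a2* together had at least 2 UMIs. Members also had 0 UMIs of *Ptprc*, *Pecam1*, *Col1a1*, *Col3a1* and *Krt14* (genes of immune, endothelial, fibroblast and basal or myoepithelial cells), 0 UMIs of *Fcgbp*, *Sftpd*, *F5* and *Ccl9*, and under 5000 CPM of *Car6* (CPM, UMIs of a gene per 1000000 UMIs of the barcode or of the summed barcodes). The rule found 393 members among 19592 kept barcodes, of 23058 that the authors called as cells.

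The cells came from the LGs of untreated C57BL/6J mice at 2 months of age. There were 3 libraries, 1 female and 2 male (male library 1, male library 2), and each pooled 6 glands of 3 animals, so the spread between animals within a library could not be seen. The female sample was processed at one core and the male samples were prepared at another on another day, so effects of sex cannot be told apart from those of the core or the day. With 1 female library no test of sex was made. Where 3 values are given, the female library comes first, then male library 1 and then male library 2.

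Acinar cells are the exocrine cells of the LG. They make tear proteins on ribosomes of the endoplasmic reticulum (ER) and release them from granules, together with water and electrolytes, when nerves stimulate the gland. *Malat1* and *Neat1* are long noncoding RNAs that stay in the nucleus, at nuclear speckles and paraspeckles, whereas mRNAs for tear proteins are found mainly in the cytoplasm. *Tfrc* encodes the transferrin receptor, which takes up iron.

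Of the kept barcodes of the female library 0.964% were members (80 of 8298, exact 95% interval 0.765 to 1.20%). The share was 2.99% for male library 1 (167 of 5582, 2.56 to 3.47%) and 2.56% for male library 2 (146 of 5712, 2.16 to 3.00%). The intervals cover counting error only. Among barcodes that met the rule but for its *Malat1* limit, members were 29.7, 15.0 and 11.3%, so the female library had the lowest share of all barcodes and the highest share of these. The 23058 called barcodes held 63066640, 40609390 and 44661762 UMIs in the 3 libraries. Of barcode sequences, 12 to 18 were shared between any pair of libraries, and no member was. Likely doublets were 0, 6 and 1 of the members, 1.78% in all, against 6.37% of the kept barcodes.

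The rule itself fixed the levels of its genes, which are given as a description. *Malat1* (chromosome 19, 5795690 to 5802672, minus strand, GRCm38) stood at 25842, 16055 and 16806 CPM in the summed members. *Tfrc* (chromosome 16, 32608920 to 32632794) stood at 137, 165 and 214 CPM and had a UMI in 73.8, 43.7 and 45.9% of members. Most members of each male library were thus without a *Tfrc* UMI at their depth. *Prom2*, which encodes a membrane protein of cell protrusions, stood at 140.1, 369 and 496 CPM and was found in 65.0, 62.9 and 67.1% of members. *Tex15*, known from germ cells, was found in 75.0, 40.7 and 36.3%.

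The other genes of the rule split the libraries. *Slc27a2*, an acyl-CoA synthetase that activates long fatty acids, stood at 17.3 CPM in the female library and at 404 and 374 in the male libraries. *Abcc2*, an exporter of organic anions, stood at 2.89 against 96.6 and 94.1 CPM. Female members thus met the limit mostly with *Tfrc*, *Prom2* and *Tex15*, and male members also with *Slc27a2* and *Abcc2*. The same order was seen outside the members, with *Slc27a2* at 5.95, 101 and 85.6 CPM in the acinar barcodes of low *Malat1* share described next. Which of sex, core or day goes with this difference cannot be told apart.

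Members were set against 3 other sets of kept barcodes. Malat1-low acinar cells (189, 946 and 1150 barcodes) met every part of the rule except that *Malat1* was under 1% of UMIs. Car6-high acinar cells (82, 79 and 60 barcodes) had at least 5000 CPM of *Car6* and the same excluded genes at 0. Malat1-rich stromal cells (2773, 305 and 184 barcodes) had at least 1% *Malat1*, a UMI of *Ptprc*, *Pecam1*, *Col1a1* or *Col3a1*, and 0 UMIs of the 5 acinar genes. Free RNA was read from uncalled barcodes of 500 to 2000 UMIs, and no uncalled barcode met the rule.

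The *Malat1* and acinar-gene limits of the rule had barcodes close to them on both sides. Members with 1 to 1.1% *Malat1* (53) had a median of 4081 UMIs, 68.7% of UMIs from tear products and 7.33% from mitochondrial genes, and barcodes left out at 0.9 to 1% (41) had 3986 UMIs, 67.0% and 8.36%. Barcodes with 2 UMIs of the 5 acinar genes (133 members) had 66.3% tear-product UMIs, those left out with 1 UMI (238) had 65.5%, and those left out with 0 UMIs (1318) had 46.7%. Of barcodes that met the rest of the rule, none had between 4000 and 6000 CPM of *Car6*, and 3 were left out above that range. Another 88 barcodes met the rule but for the mitochondrial limit, 44 of them in the female library, with a median of 21.6% mitochondrial UMIs.

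**Figure D1:**
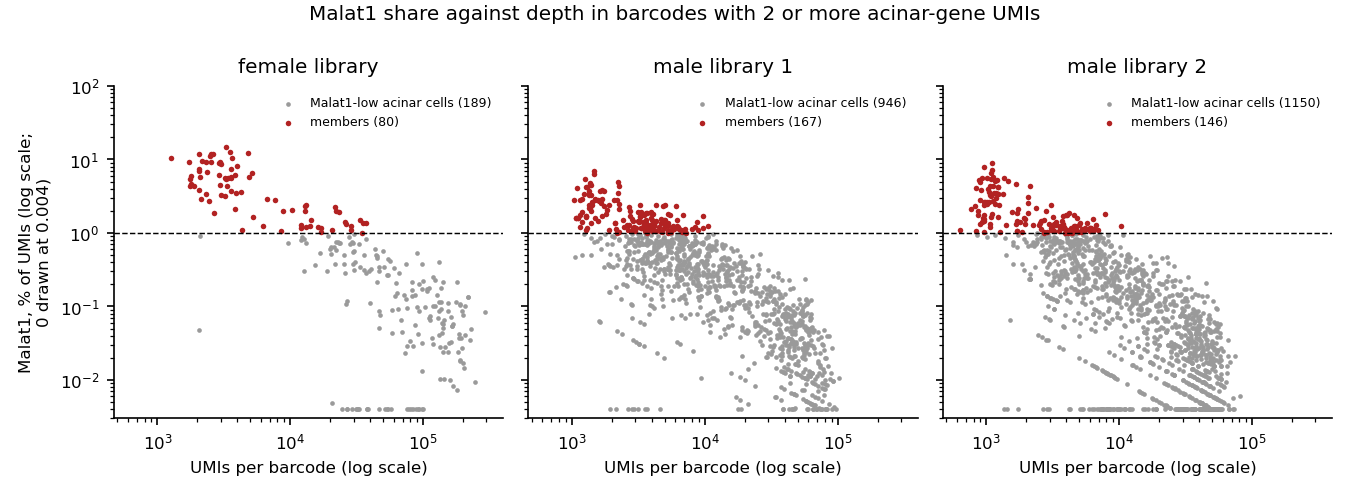
Share of *Malat1* (y axis, percent of UMIs, log scale) against UMIs per barcode (x axis, log scale) in each library, for barcodes with at least 2 UMIs of the 5 acinar genes. Red points are the 80, 167 and 146 members, grey points the Malat1-low acinar cells, and the dashed line is the limit of 1%; barcodes rich in *Malat1* lie at low depth and no gap marks the limit.

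The members were shallow. Their median was 3628, 3175 and 2004 UMIs per barcode, against 75742, 13905 and 15922 in Malat1-low acinar cells, 9614, 2263 and 3025 in Car6-high acinar cells and 3228, 1582 and 1218 in Malat1-rich stromal cells. The median number of genes was 969, 535 and 400. Depth was uneven among female members, whose quartiles were 2535 and 13004 UMIs and of which 24 had over 10000, against 1 in each male library. The 5 deepest members held 24.4, 8.39 and 9.70% of all member UMIs. At the mean depth of the barcodes read for it, free RNA would make up 12.6, 31.4 and 29.8% of the member UMIs, but 1.22, 4.39 and 3.68% of those of Malat1-low acinar cells.

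Composition also set them apart. Tear products made up a median of 56.5, 67.6 and 64.9% of a member's UMIs against 77.1, 82.3 and 84.0% in Malat1-low acinar cells. Mitochondrial RNA made up 3.79, 6.70 and 6.70% against 1.02, 1.81 and 0.896%. The 33 listed splicing genes made up 0.890, 0.280 and 0.394% against 0.0487, 0.0576 and 0.0470%. Ribosomal protein genes, by contrast, held like shares in both, with 1.58, 2.18 and 1.96% in members and 1.85, 1.96 and 1.91% in Malat1-low acinar cells. Malat1-rich stromal cells had 11.5, 8.14 and 9.15%. With 3 libraries a sign-flip test cannot go under p = 0.25 (exact, two-sided), so none was run on these medians.

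**Figure D2:**
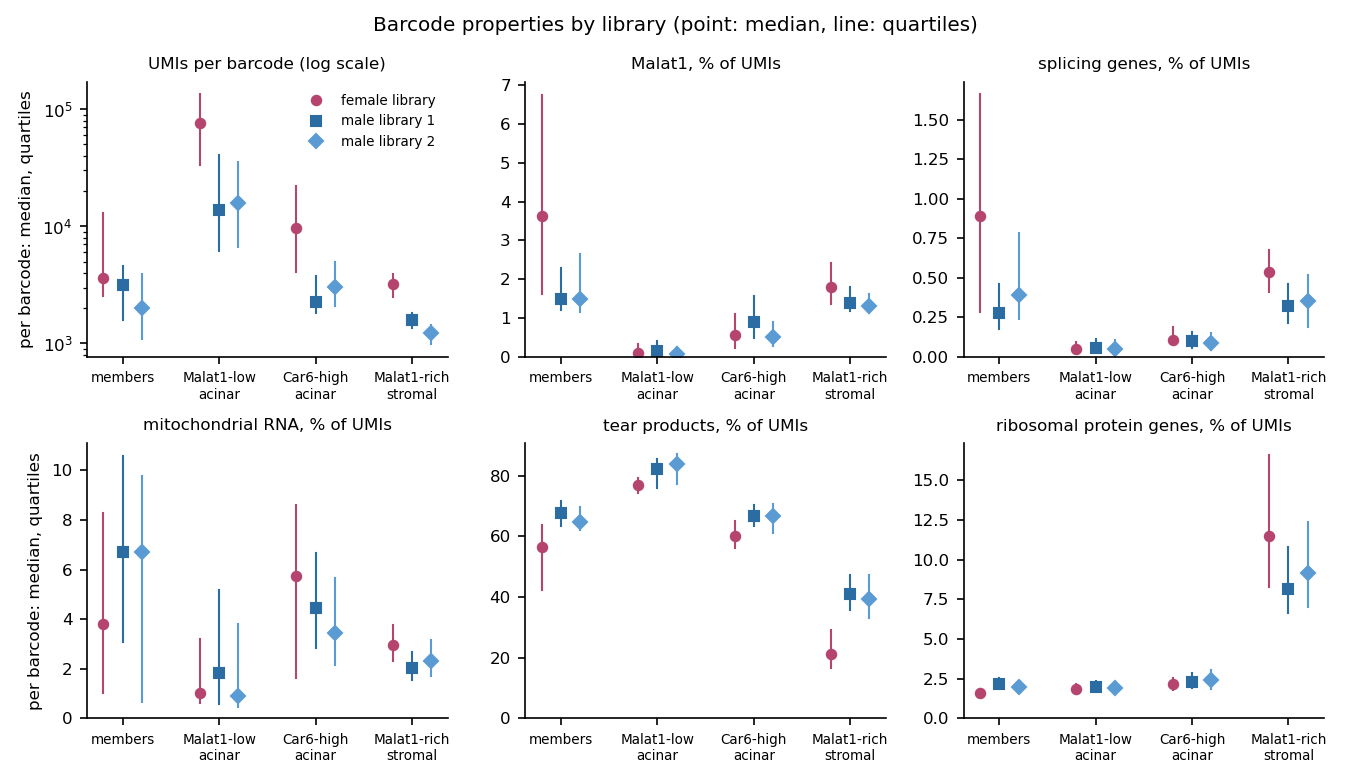
Median (point) and quartiles (line) over barcodes of UMIs (log scale) and of the percent of UMIs from *Malat1*, splicing genes, mitochondrial RNA, tear products and ribosomal protein genes, for the 4 sets of barcodes and the 3 libraries. Members have fewer UMIs than Malat1-low acinar cells in every library, a splicing share of 0.890, 0.280 and 0.394% and a ribosomal protein share near that of Malat1-low acinar cells.

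The acinar label was checked with genes that the rule did not use. The genes given here, *Pigr*, *Bhlha15*, *Aqp5*, *Edem2*, *Lpo*, *Cyp2b10* and *Etv1*, were also used by the study to describe acinar cells or clusters of these samples. They are thus not independent evidence. *Pigr*, which carries IgA across the epithelium, stood at 352, 277 and 298 CPM in members, 93.3, 31.7 and 40.7 in free RNA and 35.4, 10.4 and 31.0 in Malat1-rich stromal cells. *Bhlha15*, which encodes the secretory transcription factor MIST1, stood at 111, 154 and 207 in members and at 30.3, 26.7 and 31.4 in free RNA. The water channel gene *Aqp5* stood at 132, 254 and 316 against 45.3, 46.8 and 44.8 in free RNA. *Edem2*, which acts in ER-associated degradation, stood at 123, 181 and 205 against 23.5, 18.7 and 21.2, and the lactoperoxidase gene *Lpo* at 894, 2024 and 2015 against 261, 283 and 299. In every library these genes lay above free RNA, and so did the cytochrome gene *Cyp2b10*, though by little in the female library (7.42, 118 and 153 against 4.77, 17.0 and 22.8).

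*Etv1*, an ETS transcription factor gene, stood at 119, 163 and 192 CPM in members, 11.2, 7.12 and 8.92 in free RNA and 11.6, 4.17 and 17.7 in stromal cells. After each barcode was thinned to 1000 UMIs, *Etv1* had a UMI in 18.8, 15.6 and 22.0% of members and in 1.05, 0.692 and 1.49% of stromal cells. *Pigr* had one in 27.5, 22.8 and 26.8% against 3.77, 1.04 and 4.48%. Thinning left out 23 members of male library 2 that had under 1000 UMIs. The share in stromal barcodes, which should lack these transcripts, serves as the background. That background was itself chosen to lack UMIs of the acinar genes of the rule, which members had to have. The gaps in *Etv1* and *Pigr* are thus in part set by the choice of barcodes.

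Markers of other cell types were low. The rule had left out barcodes with a UMI of its immune, endothelial, fibroblast, basal or *Ltf*+ genes. Low levels of genes that go along with those are thus in part set by the choice. In members the fibroblast list of 5 genes had 0.000891, 0.000894 and 0.00104% of UMIs, below or near its share in free RNA (0.00350, 0.00147 and 0.000848%), with *Lum* and *Pdgfra* at 0. The duct list of 5 had at most 0.000777%, with *Krt7* and *Krt19* at 0. The endothelial list of 5 had at most 0.00143%. The list of 4 genes of *Ltf*+ epithelium had 0.00163, 0.00179 and 0.00389%, and the 5 lymphoid genes 0.00104, 0.00107 and 0.00104%, with *Trbc2* and *Cd3g* at 0. Of 10 cell cycle genes, *Top2a* had 5 UMIs and *Cenpf* 1, and *Mki67* and *Cdk1* had none.

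A few members did carry another program. The myeloid list of 5 held 0.0110, 0.0198 and 0.0145% of member UMIs, against 0.00577, 0.00259 and 0.00321% of free RNA. These UMIs sat in few barcodes. Of the members, 9 had at least 5 UMIs of another type's list, and they held 115 of the 136 *Cd74* UMIs, 53 of the 60 *H2-Ab1* UMIs and 29 of the 32 *C1qa* UMIs. One female member with 39 myoepithelial and 23 mural UMIs was among them, and the 9 held 19 of the 22 *Acta2* UMIs. In stromal barcodes rich in *Malat1*, 28 of 3494 (0.801%) had 2 or more UMIs of the 5 acinar genes, a rate in cells that should lack these transcripts.

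The first comparison asked what else differed between acinar barcodes on the 2 sides of the *Malat1* limit. UMIs were summed per library in members and in Malat1-low acinar cells, the 16 genes of the rule were left out, and all genes were tested with edgeR (quasi-likelihood, library as block, Benjamini-Hochberg adjusted p). A gene was called at an adjusted p under 0.05. Of 8166 genes tested, 1018 were called higher (12.5%) and 1554 lower (19.0%). Without the block 537 (6.58%) and 1071 (13.1%) were called. Since both arms were parted on a share of their own UMIs, genes that go along with that share or with depth differ by the choice of barcodes. The p-values rest on counts and on a dispersion estimated with the help of all genes. They do not by themselves measure how alike the 3 libraries were for a gene.

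Fold changes are given on the log2 scale and relative to the typical gene (TMM scaling). The value after ± is an SE derived from the fold change and the edgeR F statistic, and not a spread over the 3 libraries. With total UMIs as the scale the median gene was 2.02 higher in members, against 0.02 on the TMM scale. A gene near -2 on the TMM scale therefore had equal shares of all UMIs in both arms. Directions that depend on this choice are given with both values.

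Nuclear and splicing genes were higher in members. Of the 10 listed nuclear RNAs 5 could be tested and 4 were called higher, against a background of 12.5%, with a median of 1.76 against 0.02 over all genes. *Neat1* stood at 784, 363 and 438 CPM in members and at 44.9, 42.5 and 39.9 in Malat1-low acinar cells (log2 fold change 1.58 ± 0.16, edgeR adjusted p = 1.19e-20). Free RNA held 11.0, 5.67 and 6.57 CPM. *Kcnq1ot1*, an imprinted antisense RNA, stood at 299.8, 87.6 and 142 against 18.9, 8.47 and 9.94 (1.76 ± 0.19, adjusted p = 6.23e-19). The noncoding *Gm26917* stood at 107, 125 and 246 against 8.10, 12.0 and 12.3 (1.83 ± 0.19, edgeR adjusted p = 2.36e-20). It ends at 39846341 on the plus strand of chromosome 17, just before *Gm42418* of the ribosomal RNA locus (below) starts at 39846958. It may thus belong with the transcripts of that locus.

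*Snhg14*, with 11 member UMIs in all, was also called higher (2.31 ± 0.50, adjusted p = 0.000763), and *Airn* was not (0.41, adjusted p = 0.529). *Xist*, which coats the inactive X chromosome, had UMIs in the female library alone and was not tested. It stood there at 922 CPM in members, 54.2 in Malat1-low acinar cells and 975 in Malat1-rich stromal cells. After thinning to 1000 UMIs, *Neat1* had a UMI in 57.5, 32.3 and 30.9% of members and in 6.88, 8.67 and 7.75% of Malat1-low acinar cells.

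Both transcripts listed for the ribosomal RNA locus were called higher, *Gm42418* by 1.43 and *AY036118* by 1.96. These overlap on opposite strands of chromosome 17, so their reads may be shared. *Gm42418* stood at 3627, 2226 and 3279 CPM in members and 256, 286 and 294 in Malat1-low acinar cells, but free RNA held more than the members, at 13624, 3341 and 4276 CPM. After an estimate of free RNA was subtracted from the sums, both were still called higher (1.84 and 4.46), where 13.3% of all genes were called higher and 18.0% lower.

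Of the 33 splicing genes, 29 were called higher and none lower, with a median of 1.16. *Snrnp70*, a protein of the U1 particle that marks the 5′ splice site, stood at 356, 111 and 236 CPM against 21.0, 13.6 and 15.2 (1.72 ± 0.18, adjusted p = 4.72e-20). *Luc7l2*, which also binds U1, stood at 439, 215 and 267 against 28.8, 21.9 and 22.1 (1.62 ± 0.17). In CPM all 3 member sums of both genes lay above all 3 sums of the other arm. Per total UMIs 79.8% of all genes were called higher, so this order alone does not set these genes apart. *Clk1*, a kinase of the serine- and arginine-rich splicing factors, was higher by 1.79, the splicing factor *Srsf5* by 1.51 and *Nktr* by 1.52.

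The 4 splicing genes that were not called were *Hnrnpu* (0.35), *Srsf1* (0.47), *Srsf3* (0.25) and *Luc7l3* (-0.15 on the TMM scale and 1.86 per total UMIs). As a share of all UMIs the list held 0.534, 0.289 and 0.380% of the members, 0.0501, 0.0453 and 0.0455% of Malat1-low acinar cells and 0.0341, 0.0238 and 0.0254% of free RNA. Where only barcodes with 1000 to 10000 UMIs entered both arms, 1729 genes could be tested, 58 were called higher (3.35%) and 5 lower (0.289%), and 12 of 31 splicing genes and 3 of 3 nuclear RNAs were among the higher. That setting left 3 female barcodes in the Malat1-low arm.

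**Figure D3:**
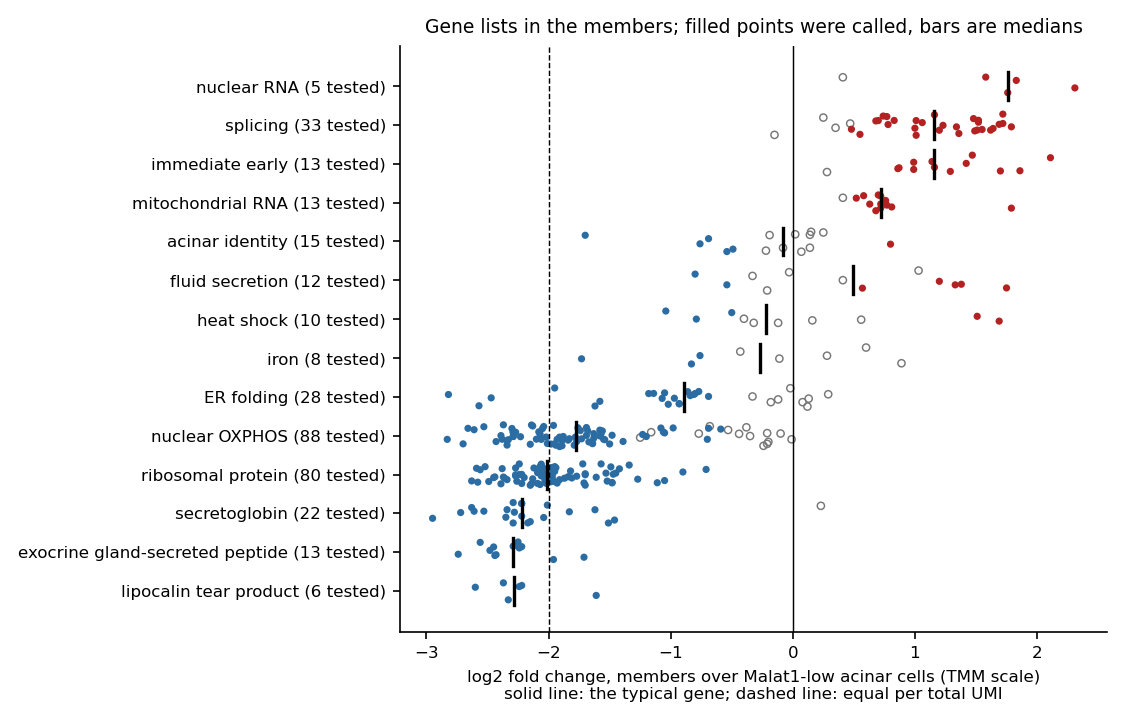
Log2 fold change (x axis, TMM scale) of each tested gene in members over Malat1-low acinar cells, by gene list. Filled points were called (red higher, blue lower), black bars are medians, the solid line is the typical gene and the dashed line at -2 marks equal shares of all UMIs. The splicing list has a median of 1.16, and ribosomal protein genes have a median of -2.01, on the dashed line.

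Immediate-early genes, which respond within minutes to stimulation and to tissue digestion, were higher too, with 12 of 13 called and a median of 1.16. The AP-1 gene *Fosb* stood at 119, 57.2 and 132 CPM in members and 4.23, 3.91 and 10.5 in Malat1-low acinar cells (2.11 ± 0.21, adjusted p = 4.98e-21). *Jun* stood at 714, 896 and 1096 against 32.7, 102 and 94.9 (1.70). *Egr1* was higher by 1.86, *Btg2* by 1.47 and *Fos* by 0.86, and *Ier3* was not called (0.28, adjusted p = 0.540). Without the library block 5 of the 13 were called. Among 10 heat shock genes, *Hspa1b* (1.69) and *Hspa1a* (1.51) were higher and 3 were called lower, among them *Hspe1* (-1.04 on the TMM scale, 0.97 per total UMIs).

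Of 5 tested genes of the p53 and apoptosis list, *Trp53inp1* was higher (1.24) and *Bax* lower (-2.06). *Bax* had 1.48, 3.58 and 10.4 CPM in members and 4.71, 5.25 and 3.71 in Malat1-low acinar cells, so that its levels overlapped.

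Relative to the typical gene, the direction of mitochondrial RNA depended on the choice of barcodes. Per total UMIs its median in the main fit was 2.72, where the median gene was at 2.02. Of 13 genes 12 were called higher with a median of 0.72, and *mt-Co1*, a subunit of cytochrome c oxidase, stood at 7378, 8771 and 8739.9 CPM against 1335, 1520.3 and 1495 (0.52 ± 0.14, adjusted p = 0.00181). *mt-Nd6* was higher by 1.79, and *mt-Atp8* was not called (0.41, adjusted p = 0.0928). With members limited to 2% *Malat1* or more, 8 of the 13 were called lower and 1 higher (median -0.63), where 17.5% of all genes were called lower and 9.03% higher. With barcodes limited to a mitochondrial share under 5%, 11 of 13 were called lower (median -1.59), where 16.3% of all genes were called lower and 10.5% higher. That limit was set on the same genes. Both settings were fitted on the TMM scale only, so their medians do not give the direction in shares of all UMIs. Under those settings 29 splicing genes were called higher, with medians of 1.64 and 1.63.

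Nuclear genes of oxidative phosphorylation and ribosomal proteins were lower relative to the typical gene. Of 88 oxidative phosphorylation genes 74 were called lower and none higher (median -1.78), and of 80 ribosomal protein genes all 80 were called lower (median -2.01), against a background of 19.0%. Per total UMIs these medians were 0.22 and -0.01. *Rpl13* was -0.71 on the TMM scale and 1.29 per total UMIs, and *Rps24* was -2.63 on the TMM scale. Within 1000 to 10000 UMIs none of 61 oxidative phosphorylation genes and 1 of 80 ribosomal protein genes was called lower, and none higher. Their medians were -0.39 and -0.47. In that setting 0.289% of all genes were called lower and 3.35% higher, so the lack of calls does not show a lack of change. The ribosomal protein genes held 1.92, 2.30 and 2.15% of all member UMIs and 1.92, 2.05 and 1.99% of those of Malat1-low acinar cells.

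The 28 genes of ER translocation and folding had 20 called lower and none higher, with a median of -0.90, or 1.10 per total UMIs. The small translocon subunits *Sec61b* (-2.57) and *Sec61g* (-2.82) and the signal peptidase gene *Spcs1* (-2.47) were far below the typical gene. *Calr*, a lectin chaperone, was -0.93, or 1.07 per total UMIs, and the chaperone *Hspa5* was -0.18 and not called. Within 1000 to 10000 UMIs none of 27 was called, with a median of -0.14, where 0.289% of all genes were called lower and 3.35% higher.

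Tear-product genes were lower, with 21 of 22 secretoglobins, 13 of 13 exocrine gland-secreted peptides, 6 of 6 lipocalins and 10 of 12 other products called. The medians were -2.22, -2.29, -2.29 and -1.36, and -0.27, -0.29, -0.29 and 0.64 per total UMIs. *Obp1a*, an odorant-binding lipocalin, stood at 111238, 88461 and 86096 CPM in members and 149298, 112979 and 110522 in Malat1-low acinar cells, lower in the members of each library (-2.37 ± 0.16). *Gm1553* (-2.91), *Scgb2b2* (-2.04), *Mucl2* (-2.18) and *Esp6* (-2.24) were lower as well. *Lpo* was not called (-0.32, adjusted p = 0.0782, or 1.68 per total UMIs), and *Dnase1* was called lower (-0.44) but was at 1.56 per total UMIs.

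Tear products made up 63.4, 68.6 and 67.4% of the summed member UMIs and 77.8, 86.7 and 86.2% of free RNA, which itself makes up more of a shallow barcode. After the same subtraction of free RNA, they made up 61.2, 60.0 and 58.9% of member UMIs and 77.7, 84.8 and 85.5% of those of Malat1-low acinar cells. In barcodes of 1000 to 10000 UMIs, 1 of 15 secretoglobins and none of 4 lipocalins was called lower, where 0.289% of all genes were. With so few calls of any gene, that setting does not show that these genes were unchanged.

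Acinar identity genes did not move together. *Etv1* and *Fgg* of this list were also among the genes by which the study described its *Tfrc*-high cluster on these samples. Of 15 tested, 1 was called higher and 5 lower on the TMM scale (median -0.08). Per total UMIs all 15 were called higher (median 1.93), where 79.8% of all genes were called higher and 0.686% lower and the median gene was at 2.02. On the TMM scale *Etv1* was the one called higher, at 119, 163 and 192 CPM in members, against 26.6 and 26.0 in the male and less in the female Malat1-low sum (0.80 ± 0.18, adjusted p = 8.00e-05). *Bhlha15* stood at 111, 154 and 207 against 30.7, 48.1 and 56.4 (-0.19, adjusted p = 0.438). *Pigr* (-0.22, adjusted p = 0.314), *Edem2* (0.02) and *Xbp1*, a factor of the unfolded protein response (0.07), also did not pass. Within 1000 to 10000 UMIs in both arms none of 14 was called and the median was -0.03, where 0.289% of all genes were called lower and 3.35% higher.

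The acinar genes called lower were *Phyh* (-1.70), *Fgg* (-0.76), *Hp* (-0.69), *Aqp5* (-0.54) and *Cyp2b10* (-0.49), each of which was above 0 per total UMIs. Among the alternatives the call held in 9 each for *Phyh*, *Fgg* and *Hp* and in 7 for *Aqp5*. For *Cyp2b10* it held in 3, was lost in 8 and changed sign in 1. *Fgg*, the gamma chain of fibrinogen, stood at 135, 345 and 279.8 CPM in members and at 94.3, 110.4 and 102 in Malat1-low acinar cells, and haptoglobin (*Hp*) at 898, 955 and 896 against 545, 341 and 272. Both were thus a larger share of all UMIs in members and lay below the typical gene. *Phyh*, a peroxisomal enzyme, was highest in the female library, at 1342, 85.8 and 98.4 CPM in members and 962, 70.9 and 94.5 in Malat1-low acinar cells.

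Among 11 epithelial genes, the eye-field factor *Pax6* (0.83) and *Sox9* (0.47) were called higher. *Fxyd3* (-1.98), *Krt18* (-0.83) and *Epcam* (-0.57) were called lower, with 0.02, 1.17 and 1.43 per total UMIs. Among the alternatives the *Sox9* call held in 5 and was lost in 7. That of *Epcam* held in 6, was lost in 5 and changed sign in 1. *Krt8* was not called (0.06). Of 12 fluid secretion genes 5 were higher, with the muscarinic receptor *Chrm3* (1.20) and the large-conductance potassium channel *Kcnma1* (1.33) among them. *Lrrc26*, a partner of that channel, was called lower (-0.80, or 1.20 per total UMIs). Of 8 tested iron genes other than *Tfrc* none was called higher and *Fth1* (-1.73), *Ftl1* (-0.83) and *Pcbp1* (-0.76) were lower, with 0.27, 1.17 and 1.25 per total UMIs. The ferritin gene *Fth1* stood at 249, 277 and 215 CPM in members, 196, 207 and 215 in Malat1-low acinar cells and 235, 256 and 263 in free RNA.

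The genes that the study used to describe its *Tfrc*-high cluster were chosen on these samples and are not independent evidence. Of 17 such genes 13 were called higher and 1 lower, with a median of 1.12. *Auts2*, a chromatin regulator, was higher by 1.12 and *Tnrc6a*, a partner of Argonaute proteins, by 1.46, and *Fgg* was the one called lower. Of the listed markers of immune and stromal cells *Cd74* (0.93) and *H2-Ab1* (1.07) were called higher, with most of their UMIs in the 9 members named above. The myoepithelial genes *Acta2* and *Tagln* were called higher too, with 20 of 22 and 11 of 12 member UMIs in the female library. Of the markers of Car6-high cells *Lrrc26* and *Bglap3* were called lower (-1.02 for *Bglap3*, or 0.98 per total UMIs).

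By fold change the leading genes called higher were *E530011L22Rik* (2.45), *Gm34455* (2.39), *Ago3* (2.32), *Gm47283* (2.31), *Rps6kb2* (2.23), *Kcnn2* (2.22), *Pan2* (2.21), *Prpf39* (2.18), *Nsmaf* (2.16) and *Tet2* (2.16). *Ago3* encodes an Argonaute protein, *Pan2* a deadenylase, *Prpf39* a splicing factor and *Tet2* an enzyme that oxidizes 5-methylcytosine. The leading genes called lower rested on few member UMIs, so their fitted folds are not given. *Chchd5*, *Stmn1*, *Apip*, *Ly96*, *Pdcd2l*, *Gm16124* and *Frmd8os* had 1 or 2 UMIs over all members, *A630073D07Rik* had 14, all in the female library, and *Sp3os* had 0. The mean of *Sp3os* in Malat1-low acinar cells was 1.75 CPM, under the 1.85 CPM that 3 UMIs over all members would give.

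**Figure D4:**
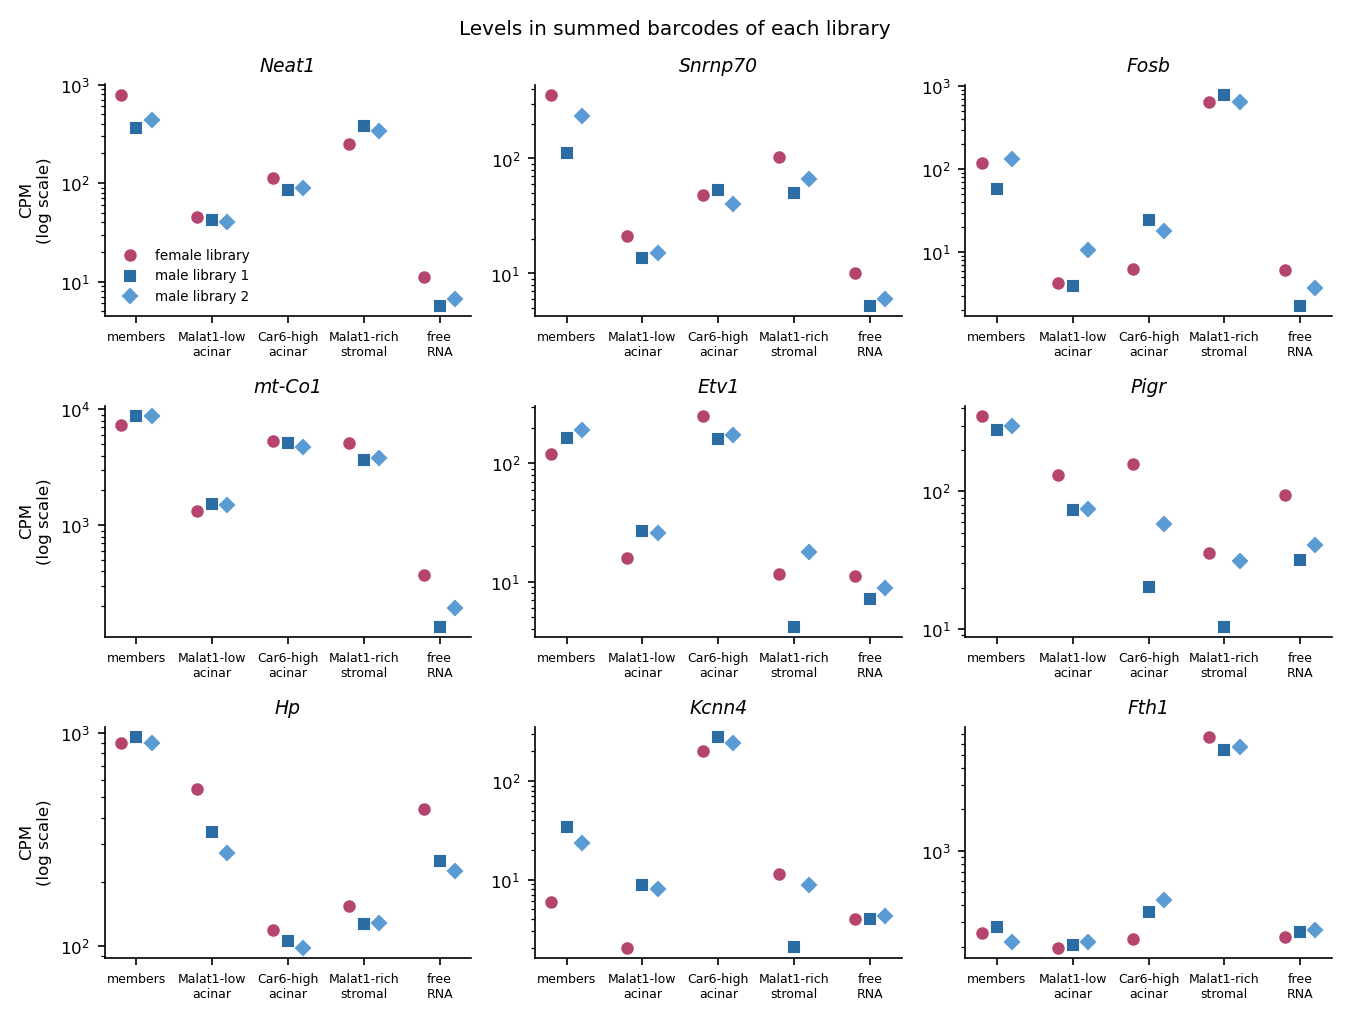
CPM (y axis, log scale) of 9 genes in the summed barcodes of members, Malat1-low acinar, Car6-high acinar and Malat1-rich stromal cells and in free RNA, 1 symbol per library. *Neat1*, *Snrnp70* and *Etv1* lie above free RNA in the members of every library, and *Fth1* lies near its free-RNA level of 235, 256 and 263.

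Members differed among themselves along the *Malat1* share. Their UMIs were summed in 3 ranges of that share, 1 to 1.5% (176 members), 1.5 to 3% (120) and 3% or more (97), without the rule's genes in the totals. The splicing share was 0.232, 0.384 and 1.44% in these ranges, and it went up from each range to the next in every library, reaching 1.72%, 0.772% and 1.01%. *Neat1* stood at 315, 496 and 1976 CPM. The immediate-early share was 0.239, 0.327 and 0.916%. *Etv1* stood at 101, 156 and 407 CPM over all libraries, while in the female library it was 57.3, 48.6 and 411.

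Mitochondrial RNA ran the other way. Its share was 8.28 and 7.87% in the lower ranges and 2.73% in the highest, and in the libraries the highest range had 2.95, 1.93 and 2.60% after 8.43, 7.89 and 8.58% in the lowest. Tear products had 68.4, 65.8 and 54.8%, with the low value set by the female library (49.0%, against 67.3 and 64.5% in the male libraries). Ribosomal protein genes had 2.03, 2.27 and 2.10%. Median depth went along with these ranges, at 4058, 2142 and 1740.0 UMIs per member, and its part was not tested. These are descriptions along a gene of the rule, with no test.

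**Figure D5:**
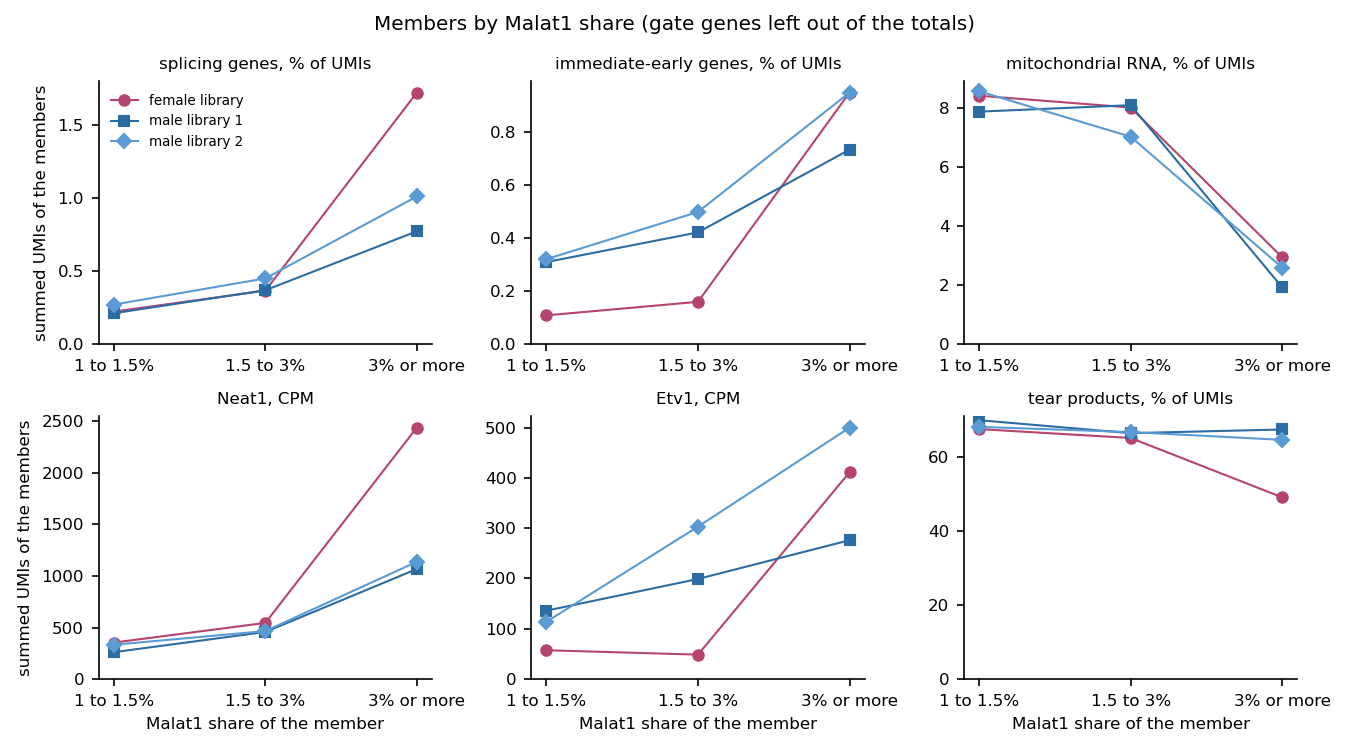
Summed UMIs of members in 3 ranges of *Malat1* share (x axis), as percent of UMIs or CPM (y axis), 1 line per library. The splicing share reaches 1.72, 0.772 and 1.01% in the highest range, where mitochondrial RNA is at 2.95, 1.93 and 2.60%.

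Car6-high acinar cells are the other acinar set next to the members, of like depth in the male libraries. Their gene *Car6* encodes the secreted carbonic anhydrase of saliva and tears. Of 1791 genes that could be tested, 270 were called higher in members (15.1%) and 392 lower (21.9%). The shift between scales was 0.52 (log2). Without the library block 186 and 344 were called.

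Members needed at least 1% *Malat1* and Car6-high cells did not. Median *Malat1* shares were 3.64, 1.49 and 1.49% in members and 0.561, 0.889 and 0.522% in Car6-high cells. Genes that go along with that share thus differ in part by the choice of barcodes, and this is no independent repeat of the first comparison. Nuclear and splicing genes were higher in members here too. Of 31 splicing genes 24 were called higher and none lower, with a median of 1.34 against 0.03 over all genes. *Neat1* stood at 784, 363 and 438 CPM against 113, 85.3 and 89.3 (1.72 ± 0.21, edgeR adjusted p = 0.00167), and *Kcnq1ot1* was higher by 2.20, *Luc7l2* by 1.43 and *Snrnp70* by 1.57. Of 13 immediate-early genes 4 were called higher, among them *Fosb* (2.32), and *Ier3* was called lower (-2.71). Of 13 mitochondrial genes none was called (median 0.17), while per total UMIs 10 were called higher (median 0.73), where 35.0% of all genes were called higher and 10.6% lower. Mitochondrial RNA made up 7.33, 7.65 and 7.68% of the summed member UMIs against 4.35, 4.31 and 3.56%. Ribosomal protein genes (71 of 79 lower, median -1.15, or -0.60 per total UMIs) and oxidative phosphorylation genes (55 of 68 lower, median -1.39, or -0.85) lay below, on both scales.

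Acinar identity genes parted the 2 sets. Members needed at least 2 UMIs of the 5 acinar genes, and Car6-high cells, with a median of 0 in each library, did not. Genes that go along with those 5 thus differ in part by the choice of barcodes. Of 14 tested, 8 were called higher in members and 2 lower (median 0.90). *Fgg* stood at 135, 345 and 279.8 CPM in members, 13.3, 8.12 and 22.3 in Car6-high cells and 88.5, 89.5 and 94.8 in free RNA (3.12 ± 0.38, adjusted p = 0.00167). *Hp* was higher by 2.36, *Cyp2b10* by 1.48, *Edem2* by 1.43, *Pigr* by 1.35 and *Bhlha15* by 0.93. *Etv1* was called lower (-1.06 ± 0.31, adjusted p = 0.0259), at 119, 163 and 192 CPM against 251, 162 and 174, and so was *Aqp5* (-0.82). On shares of all UMIs *Etv1* lay lower in the members of the female library alone. Both calls were lost per total UMIs and after subtraction of free RNA. That of *Etv1* was lost without the female library (-0.46), and that of *Aqp5* without male library 1 (-0.81) or male library 2 (-0.84). Among all alternatives, the *Etv1* call held in 4, was lost in 7 and changed sign in 1. The *Aqp5* call held in 4 and was lost in 8.

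Genes that mark Car6-high cells were all lower in members, with 4 of 4 called. The study described its Car6-high cluster by these genes on these samples, and *Car6* parted the arms. The calls are thus a description and not independent evidence. *Kcnn4*, a calcium-activated potassium channel, stood at 5.94, 34.0 and 23.3 CPM in members and at 202, 280.3 and 241 in Car6-high cells (-4.34). The folate receptor *Folr1* was -3.69, *Bglap3* -1.92, *Lrrc26* -1.42 and *Dnase1* -2.38. In members *Lrrc26* still stood at 98.0, 104 and 135 CPM, against 38.4, 36.4 and 33.4 in free RNA.

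Tear products split by family. Of 16 secretoglobins 6 were called higher and 1 lower (median 0.75), with *Scgb2b2* at 0.97 and *Scgb2b27* at -6.98. Of 6 lipocalins 4 were called lower (median -3.08). *Mup4* stood at 223, 10836 and 9867 CPM against 14209, 83524 and 84289.8 (-4.60), *Mup5* was -7.13 and *Obp1a* -1.99. Free RNA held *Scgb2b2* at 68240.5, 80636 and 92076 CPM, close to its 81860.1, 90240.0 and 102646 in members, and after subtraction of free RNA the gene was at 2.31 and not called (adjusted p = 0.0698). By size the leading genes called higher beside *Fgg* were *Jmy* (3.53), *Mfge8* (3.18), *Vgll4* (3.15) and *Zmynd8* (3.07), and those called lower beside *Mup5* and *Scgb2b27* were *Ggh* (-6.08, with ratios of -7.86, -2.49 and -3.44 in the libraries), *Wfdc18* (-5.74) and *Barx2*, which had 1 UMI over all members and for which no fold is given. Among epithelial genes *Sox9* was higher (1.32) and *Fxyd3* (-3.09) and *Epcam* (-1.60) lower.

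Malat1-rich stromal cells share the *Malat1* limit and the low depth with members. The arms were parted by acinar and stromal genes, so differences in such genes are set by the choice. Of 4233 genes tested 1153 were called higher (27.2%) and 1564 lower (36.9%), and the median gene was at -0.24, or at -1.57 per total UMIs. Against these cells, 25 of 33 splicing genes were called higher in members (median 1.11) and none lower on the TMM scale. Per total UMIs 5 were called higher and 12 lower (median -0.25), where 9.54% and 65.3% of all genes were. The list held 0.571, 0.367 and 0.379% of stromal UMIs, close to the 0.534, 0.289 and 0.380% of the members. *Luc7l2* was higher by 2.08 and *Neat1* by 1.89, at 784, 363 and 438 CPM against 249, 379 and 337, so that on shares of all UMIs *Neat1* overlapped between the sets.

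Mitochondrial RNA was higher in members for all 13 genes (median 2.63, or 1.36 per total UMIs), with *mt-Co1* at 2.19. Immediate-early genes were lower for 8 of 13 and higher for 1 (median -1.15), with *Fos* at 325, 367 and 342 CPM in members and 1712, 2108 and 1818 in stromal cells (-1.24). Iron genes were lower for 5 of 6, and *Fth1*, at 249, 277 and 215 against 6699.9, 5350.0 and 5644, was called lower (-3.37 ± 0.30, edgeR adjusted p = 2.73e-27). *Fth1* had a UMI in 20.0, 21.6 and 16.3% of members thinned to 1000 UMIs and in 86.2, 86.5 and 92.5% of stromal cells. Ribosomal protein genes were lower for 74 of 80 (median -1.31), and *Rpl13* was not called (0.16, or -1.10 per total UMIs).

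Acinar identity genes were higher in members for 13 of 14 (median 3.98) and epithelial genes for 8 of 8 (median 3.50), with *Pigr* at 4.91, *Etv1* at 5.00, *Bhlha15* at 4.69, *Aqp5* at 4.16, *Krt8* at 3.46 and *Epcam* at 2.28. The leading genes called higher were *Cecr2* (6.96), *Sel1l3* (6.35), *Myo5c* (6.35), *Slc23a1* (6.27) and, close behind, *Arhgdig*. Fibroblast, endothelial and myeloid lists were lower for all 5 genes each. *Crabp1* had no UMI in any member, and against 3 UMIs over all members its mean level in stromal cells was at least 369-fold higher. The same bound was 296-fold for *Lum*, 238-fold for *Lpl*, 229-fold for *Dpep1* and 223-fold for *Serpinf1*.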

How the data were processed

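Single-cell libraries of 3 pools of LGs (10x Genomics, 3′ end) were sequenced. Per the labels the authors counted UMIs with Cell Ranger 6.1.2 on mm10, while the header of the unfiltered sets names another version of Cell Ranger, and the annotation release is not given in the sources used here. The deposited values are raw counts of UMIs per gene and barcode for 32285 genes, before the authors corrected free RNA, removed doublets or filtered cells. One set per library holds the barcodes called as cells (23058 in all) and one has all barcodes. The second served for free RNA only.

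Kept barcodes (over 500 UMIs, over 200 genes, under 15% mitochondrial UMIs) were gated by the rule in the results. The members and gene lists were chosen with earlier results of these data known. UMIs were summed per library and set of barcodes (6 sums per comparison), the 16 genes of the rule were left out of counts and library sizes, and genes were tested in edgeR 4.0.16 (R 4.3.3; filterByExpr, TMM, estimateDisp, glmQLFit, glmQLFTest, two-sided) with the library as a block, since both sets of a library come from the same suspension. Deviations of both sets from their means correlated within a library at 0.30 to 0.57, 0.30 to 0.59 and 0.19 to 0.45 in the 3 comparisons. Calls were made at a Benjamini-Hochberg adjusted p under 0.05 over all genes tested. The steps were tested on simulated data with 200 changed genes, at a set dispersion. For the first comparison 3.12% of genes changed 2-fold, 39.6% of those changed 4-fold and 0.0386% of unchanged genes were called. The values for 2-fold and 4-fold were 20.0 and 83.3% against Car6-high cells and 14.5 and 92.2% against stromal cells. A gene that was not called is thus not shown to be unchanged. Per-library ratios add a prior count of 2.

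The named genes are those of the rule, genes of the fixed lists (up to 6 examples each, and more where a call had to be named), and the leading 10 or 5 genes per direction by fold change among genes with at least 60 UMIs in the sums, and a few genes that this picks are not reported here. Doublets were scored with scanpy 1.11.5 at 0.8% per 1000 barcodes. Tear products are the 116 genes of 4 lists. Intervals are exact Clopper-Pearson at 95%, from scipy 1.17.1. Gene lengths and places come from GENCODE release M21 on GRCm38. Depth limits the tests to genes with enough UMIs in the shallow members. Alternatives were total-UMI scaling, no low-count filter, DESeq2 1.42.0, no block, leaving out each library, stricter limits of the rule, 1000 to 10000 UMIs, thinning to 500 UMIs, no likely doublets and, added after seeing the data, subtraction of free RNA.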

Additional observations from a re-analysis of the deposited data

Results flagged for a closer look

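The sign of a log2 ratio in the female library was opposite to that in both male libraries for 4 of the named genes, and these differences were not tested, since there was 1 female library and sex, core and day coincide. In members against Malat1-low acinar cells, *Edem2* was at -0.47 in the female library and at 0.20 and 0.32 in the male libraries. *Luc7l3* was at 0.24 in the female library and at -0.32 and -0.91 in the male libraries. *Krt8* was at -0.37 in the female library and at 0.19 and 0.28 in the male libraries. In members against Malat1-rich stromal cells, *Rpl13* was at -0.15 in the female library and at 0.54 and 0.09 in the male libraries. None of the 4 was called in these comparisons. No group had the 4 samples that a test for an outlying sample needs.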

How the results depend on the processing

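Over the named genes, 1545 of 1758 values under an alternative kept their direction and side of the threshold, 153 kept the direction but lost the call, 20 gained one and 40 changed sign. The 14 named splicing, nuclear and immediate-early genes called higher against Malat1-low acinar cells kept their direction in every alternative, and lost the call in 4 of 177 values (*Snhg14* with DESeq2, *Clk1* within 1000 to 10000 UMIs, *Fos* in that range and without the block). The number of genes called moved most with scaling, depth and the rule. In members against Malat1-low acinar cells, calls higher and lower were 1018 and 1554. They were 6513 and 56 with total UMIs, 427 and 971 with DESeq2, 593 higher with no low-count filter, 58 and 5 within 1000 to 10000 UMIs, 53 and 79 with barcodes thinned to 500 UMIs and 618 higher at 2% *Malat1*. Leaving out each library gave 495 to 787 higher and 1208 to 1241 lower, with 495 without the female library and 647 without male library 2. Fewer samples, or fewer UMIs and genes, enter the fits with a library, depth or thinning limit; the other causes were not tested.

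The library is a block because both sets come from one suspension. Without the replicate block 537 genes were called higher in that comparison, and in the other comparisons the counts stayed within 1.5 times.

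Against Car6-high acinar cells (270 and 392), calls were 626 and 190 with total UMIs, 124 and 216 with DESeq2, 98 and 118 within 1000 to 10000 UMIs, 158 and 88 under 5% mitochondrial UMIs and 9 and 14 when thinned. Against Malat1-rich stromal cells (1153 and 1564), they were 404 and 2766 with total UMIs, 199 and 209 at 2% *Malat1*, 430 and 457 under 5% mitochondrial UMIs, 179 and 241 when thinned, and 2602 lower with no low-count filter. Subtracting free RNA gave 1087 and 1469, 271 and 286, and 1048 and 1523. Members were 0.723, 1.95 and 1.59% of kept barcodes with at least 3 UMIs of the 5 acinar genes, 0.675, 0.860 and 0.858% at 2% *Malat1*, and 0.589, 1.32 and 1.30% under 5% mitochondrial UMIs.

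Signs against Malat1-low acinar cells changed with total UMIs for *Hspe1* (0.97), *Bhlha15* (1.81), *Pigr* (1.78), *Cyp2b10* (1.49), *Aqp5* (1.46), *Phyh* (0.32), *Hp* (1.31), *Fgg* (1.24), *Fxyd3* (0.02), *Krt18* (1.17), *Epcam* (1.43), *Lrrc26* (1.20), *Hspa5* (1.82), *Calr* (1.07), *Fth1* (0.27), *Ftl1* (1.17), *Pcbp1* (1.25), *Lpo* (1.68), *Dnase1* (1.56), *Luc7l3* (1.86) and *Rpl13* (1.29, and -1.10 against stromal cells). They changed within 1000 to 10000 UMIs for *Hspe1* (0.27), *Fgg* (0.05), *Calr* (0.14), *Pcbp1* (0.12), *Dnase1* (0.04), *mt-Co1* (-0.27), *mt-Atp6* (-0.19) and *Cd74* (-0.03), and when thinned for *Fgg* (0.59), *Krt18* (0.30), *Calr* (0.21) and *Ftl1* (0.03). *mt-Co1* and *mt-Atp6* were at -0.73 and -0.64 at 2% *Malat1* and at -1.69 and -1.59 under 5% mitochondrial UMIs, where *Etv1* against Car6-high cells was at 0.18. *Acta2* was at -0.93 to 2.66 when a library was left out, with -0.93 without the female library.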

Other observations

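Genes called higher and lower against Malat1-low acinar cells differed in length. The median of the longest annotated transcript was 4861 bases over the 1018 genes called higher, 1794 bases over the 1554 called lower and 3579.5 bases over the genes not called. The median gene span was 40072, 10098 and 27176 bases in the same order. At least 99.9% of each set had a length. These are medians over genes, which are not independent, and length was not a term of the fit.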
